A study of Mus musculus with 4 samples.

Results

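Gata2cKO samples were female ovarian cells, enriched for germ cells, from embryos labelled as conditional knockouts (cKO) of Gata2. Peaks of open chromatin found in the Gata2cKO list alone, at the ends of protein-coding genes, numbered 631 of its 44139 peaks. They were chosen by their measured presence: a Gata2cKO interval that no Gata2WT interval overlapped by 1 bp (cKO-only), and that came within 1 kb of either annotated end of a protein-coding gene. Gene ends held 13998 Gata2cKO peaks in all, of which these 631 were 4.51%, against 26.8% of the 30141 peaks elsewhere (8079 cKO-only peaks). The 631 peaks reached 709 of 21627 protein-coding genes (3.28%). Of these genes, 429 had another gene-end peak that both lists shared, and 280 (1.29% of all genes) had none.

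ATAC-seq, which marks open DNA by the insertions of the Tn5 transposase, was run on 4 samples, 2 of them Gata2WT and 2 Gata2cKO. All were labelled female and held cells enriched for germ cells from the fetal ovaries of C57BL/6J mice on embryonic day E14.5. Males carrying Prdm1-Cre and 1 floxed Gata2 allele were mated to females with both alleles floxed, so embryos of both groups carry a floxed allele from the mother, and the labels do not say which allele combinations counted as Gata2WT. Prdm1 drives Cre in early germ cells and in some other tissues. Ovaries of both groups were dissociated with trypsin, and about 10000 cells per library were taken after enrichment on anti-SSEA1 magnetic beads (SSEA1 is a carbohydrate on early germ cells), although the labels name the cell type as ovarian cells and do not say whether embryos were pooled. The data were 1 combined peak list per genotype, so no value below carries replicate error and no test between genotypes was possible; intervals are 95% Wilson intervals and cover counting error only. Since each list is a bulk sample, a change in the mix of cells and a change in openness per cell cannot be told apart.

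GATA2 belongs to the GATA family of DNA-binding proteins, named after the motif they recognise. The start of a gene is usually open when the gene is active or poised, and promoters rich in CpG dinucleotides are open in most cell types, whereas CpG-poor promoters tend to be open only where their gene is used. Open chromatin near the last exon of a gene can belong to an enhancer or to the promoter of a neighbour.

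Annotated transcription starts lay inside 63 of the peaks, counting the 15533 genes with a RefSeq promoter window near their annotated end. Promoter windows of 6 of these genes are printed to make their base composition visible, from CpG-poor to CpG-rich. Each runs from 250 bases before to 50 bases after the start, 5′ to 3′ on the gene's strand, as RefSeq gives it on GRCm38.p6, with every CpG in capitals. The windows are chr3:107969125-107969424 on the minus strand for Gstm3, chr7:4964357-4964656 (minus) for Sbk2, chr8:123411303-123411602 (plus) for Tubb3, chr14:56575369-56575668 (plus) for Parp4, chr9:14740623-14740922 (minus) for Piwil4 and chr19:38125272-38125571 (minus) for Rbp4.
Gstm3: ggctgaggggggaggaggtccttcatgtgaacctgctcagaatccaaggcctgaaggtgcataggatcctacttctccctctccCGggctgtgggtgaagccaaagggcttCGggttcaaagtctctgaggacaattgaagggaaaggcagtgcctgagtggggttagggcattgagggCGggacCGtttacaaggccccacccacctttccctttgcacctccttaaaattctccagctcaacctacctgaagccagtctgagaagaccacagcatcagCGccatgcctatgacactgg
Sbk2: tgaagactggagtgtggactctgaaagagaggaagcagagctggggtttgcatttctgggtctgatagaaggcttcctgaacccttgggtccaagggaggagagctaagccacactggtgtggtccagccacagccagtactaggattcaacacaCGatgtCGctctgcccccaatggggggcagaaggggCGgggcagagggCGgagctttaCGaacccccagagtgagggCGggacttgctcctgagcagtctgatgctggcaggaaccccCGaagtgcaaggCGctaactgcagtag
Tubb3: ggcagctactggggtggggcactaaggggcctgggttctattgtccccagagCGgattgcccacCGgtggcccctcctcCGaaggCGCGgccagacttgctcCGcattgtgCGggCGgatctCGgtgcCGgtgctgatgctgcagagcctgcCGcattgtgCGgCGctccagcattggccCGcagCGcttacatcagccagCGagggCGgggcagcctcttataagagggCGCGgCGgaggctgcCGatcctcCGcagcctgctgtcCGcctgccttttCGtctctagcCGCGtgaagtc
Parp4: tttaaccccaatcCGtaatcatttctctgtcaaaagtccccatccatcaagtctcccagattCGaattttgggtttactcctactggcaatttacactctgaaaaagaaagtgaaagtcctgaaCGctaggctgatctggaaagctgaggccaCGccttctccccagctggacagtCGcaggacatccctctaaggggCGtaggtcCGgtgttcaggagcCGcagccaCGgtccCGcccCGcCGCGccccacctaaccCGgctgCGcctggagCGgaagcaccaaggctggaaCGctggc
Piwil4: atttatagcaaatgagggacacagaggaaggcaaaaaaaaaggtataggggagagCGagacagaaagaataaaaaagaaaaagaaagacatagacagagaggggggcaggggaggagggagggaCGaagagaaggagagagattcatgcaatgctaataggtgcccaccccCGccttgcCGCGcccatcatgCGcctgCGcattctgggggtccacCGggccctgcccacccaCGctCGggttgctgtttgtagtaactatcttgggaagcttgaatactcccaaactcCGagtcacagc
Rbp4: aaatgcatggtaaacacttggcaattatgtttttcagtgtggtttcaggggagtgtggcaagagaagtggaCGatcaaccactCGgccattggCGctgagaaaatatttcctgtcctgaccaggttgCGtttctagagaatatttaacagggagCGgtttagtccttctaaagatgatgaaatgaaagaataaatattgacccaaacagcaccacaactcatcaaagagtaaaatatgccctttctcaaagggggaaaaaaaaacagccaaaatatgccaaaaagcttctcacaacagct
The windows of Gstm3 and Rbp4 held 5 CpG each, that of Sbk2 8, that of Piwil4 11, that of Parp4 17 and that of Tubb3 26. Windows can reach beyond the peak that covers the start. Of the 300 bases, 53 lay inside the peak for Gstm3, 134 for Piwil4, 135 for Rbp4, 228 for Parp4, 299 for Sbk2 and 300 for Tubb3.

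Most of the cKO-only gene-end peaks were weak. Their median deposited −log10 q was 2.88 (quartiles 1.72 and 4.03), where a larger value means a peak that stands further above its local background. At the summit they held a median of 12 fragments, the unit that the peak caller piled up, from 8 in the lowest to 42 in the highest. Shared Gata2cKO gene-end peaks had a median −log10 q of 31.4 and 54 fragments, and were 902 bp wide against 346 bp. cKO-only peaks away from gene ends were as weak, with a median of 2.88 and 11 fragments. Of the 631, 441 had a −log10 q of at least 2, 99 at least 5 and 11 at least 10. These values come from the contrast that chose the peaks and only describe them.

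The share of gene-end peaks that were cKO-only dropped with strength. It was 50.5% of the 376 gene-end peaks with a −log10 q of 1 to 2 and 20.8% of the 861 from 3 to 5. From 10 to 15 it was 9 of 1142 peaks, and above 30 it was 0 of 6885, which allows a share of up to 0.0558%. In every bin up to 30 the share was lower at gene ends than elsewhere. The local background was more than 1.2 times the genome background of 2.01 fragments at 67.4% of the 631 peaks, against 41.3% of cKO-only peaks elsewhere, and its part in the result was not tested.

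**Figure D1:**
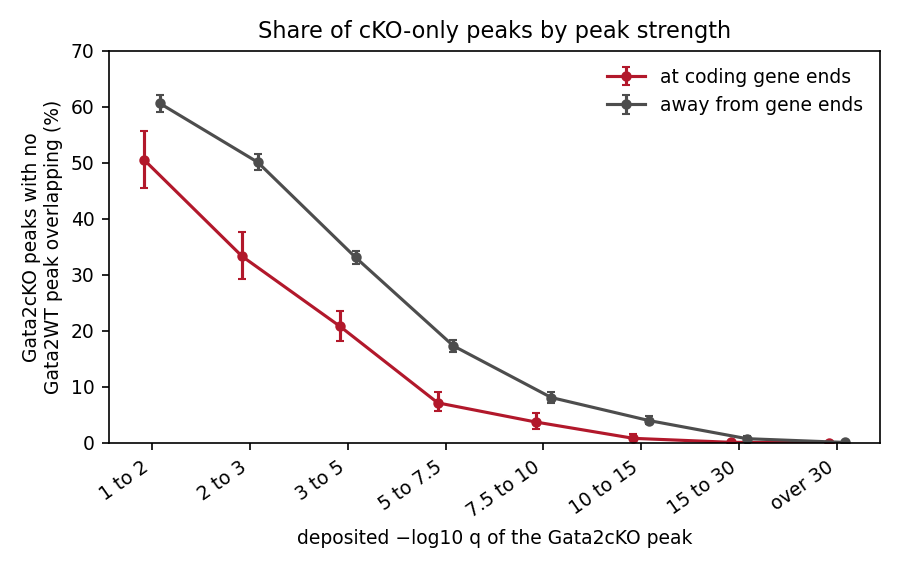
Share of Gata2cKO peaks with no overlapping Gata2WT peak (%, vertical axis) by deposited −log10 q (horizontal axis), for peaks at coding gene ends (red) and elsewhere (grey); points are shares and bars 95% Wilson intervals. The red points run from 50.5% in the weakest bin to 0 in the strongest and lie below the grey ones up to a −log10 q of 30.

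A Gata2WT peak often lay close by without touching. It was within 0.5 kb of 94 of the 631 peaks (14.9%, 12.3 to 17.9), against 4.78% of cKO-only peaks elsewhere (4.33 to 5.26). Near genes with a shared gene-end peak this held for 80 of 359 peaks (22.3%), and near genes without one for 12 of 254 (4.72%). A further 18 peaks reached genes of both kinds. Part of this gap between the classes comes from the sorting, since every shared peak overlaps a Gata2WT peak. The size of that part was not tested. Just inside the overlap rule, a peak of Kif26b was separated from the nearest Gata2WT peak by 4 bp, one of Nt5c1a by 11 bp and one of Arhgef4 by 20 bp. Just outside it, gene-end peaks of Ak1, Cntnap2 and Pomp overlapped a Gata2WT peak by 4, 26 and 35 bp. At the edge of the window, peaks of Cradd and Rab37 stood 1000 bp from a gene end and one of H3f3a 991 bp, while cKO-only peaks at 1001 bp (Stac), 1002 bp (Acrbp) and 1007 bp (Lrpprc) were left out. The −log10 q of these 12 peaks ran from 1.13 to 6.02.

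By strand, the peaks lay at both gene starts and gene ends proper. For the 473 peaks whose nearest gene had a known strand, the nearest end was the 5′ end in 218 (46.1%, 41.6 to 50.6) and the 3′ end in 255. This share depended on the rule for the peaks: it was 40.9% with a window of 2 kb, 53.9% with 0.5 kb and 72.7% where only summits within 250 bp counted as shared. Shared Gata2cKO gene-end peaks lay at a 5′ end in 91.6% of cases (91.1 to 92.1). Among weak peaks, with a −log10 q of up to 5, the shares were 42.0% for cKO-only (37.3 to 46.9) and 66.3% for shared peaks (63.2 to 69.3). These intervals stayed apart, but strength was not matched within that range. There cKO-only peaks were 50.5% of gene-end peaks from 1 to 2 and 20.8% from 3 to 5. WT-only gene-end peaks, the mirror set of 1034 peaks (7.17% of 14414 Gata2WT gene-end peaks), had 51.2% at a 5′ end (47.7 to 54.7), an interval that overlaps that of the cKO-only peaks.

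The split by gene class was wide. Where the gene had no shared gene-end peak, 128 of 180 cKO-only peaks lay at its 5′ end (71.1%, 64.1 to 77.2). Where it had one, 85 of 279 did (30.5%, 25.4 to 36.1). Part of this split comes from the sorting itself. Shared Gata2cKO gene-end peaks lay at a 5′ end in 91.6% of cases, so genes sorted as having one mostly had that end taken already. The size of that part was not tested. The mirror set had 78.4% (73.7 to 82.4) and 29.1% (24.9 to 33.6), and both intervals overlap those of the cKO-only peaks. Counting each gene that a peak reached, the shared peak of genes with a cKO-only peak at the 3′ end stood at the 5′ end alone in 215 cases, at the 3′ end in 6 and at both ends in 8. Genes without a shared peak made up 39.5% of the genes reached by cKO-only peaks (36.0 to 43.1) and 44.4% of the 1070 genes reached by WT-only peaks (41.4 to 47.4), which are 4.95% of all genes.

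**Figure D2:**
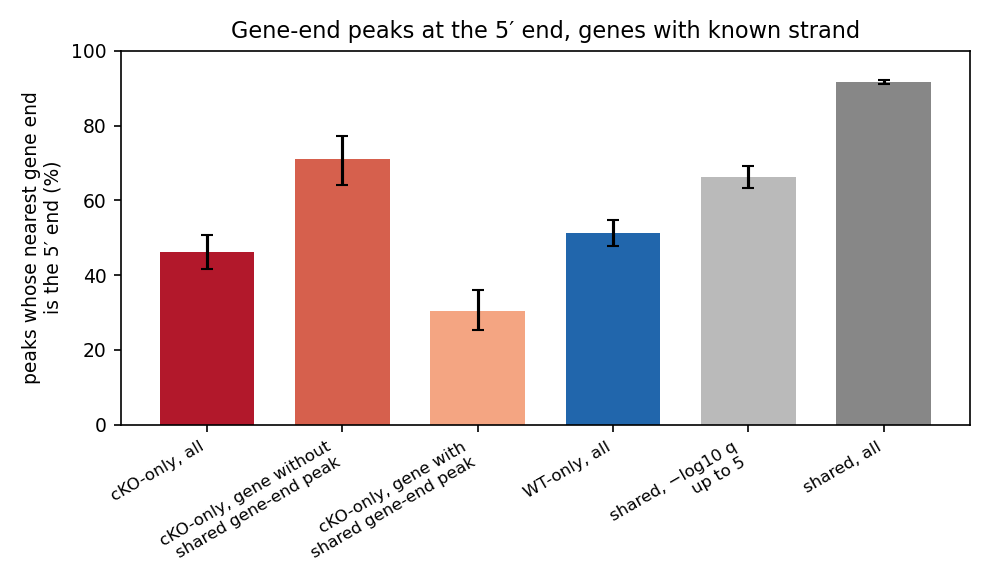
Percent of gene-end peaks whose nearest gene end is the 5′ end (vertical axis), among peaks of genes with known strand, for 6 sets of peaks; bars are shares and whiskers 95% Wilson intervals. cKO-only peaks stand at 71.1% for genes without a shared gene-end peak and 30.5% for genes with one, against 91.6% for all shared peaks.

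Peaks at the start of genes covered the first annotated base less often than shared peaks did, which covered it in 81.0% of cases (80.2 to 81.8) and had the summit within 250 bp of it in 69.4%. Of the 128 peaks at the 5′ end of genes without a shared peak, 55 covered that base (43.0%, 34.7 to 51.6) and 66 had their summit within 250 bp of it, with a median position 76 bp into the gene. Beside a shared peak, 20 of 85 peaks at the 5′ end covered the first base (23.5%, 15.8 to 33.6) and 23 had the summit within 250 bp. The sorting sets part of this share, since a base inside the gene's shared peak is not free for a second peak. Shared peaks were also wider, with a median of 902 bp against 346 bp for all cKO-only gene-end peaks. The part of either in these shares was not tested. At 3′ ends few peaks covered the last base: 0 of 52 at genes without a shared peak, and 15 of 194 at genes with one (7.73%). The 3′ peaks beside a shared one leaned outward, with a median summit 298 bp beyond the gene, whereas those of genes without a shared peak lay inside, with a median of 512 bp.

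**Figure D3:**
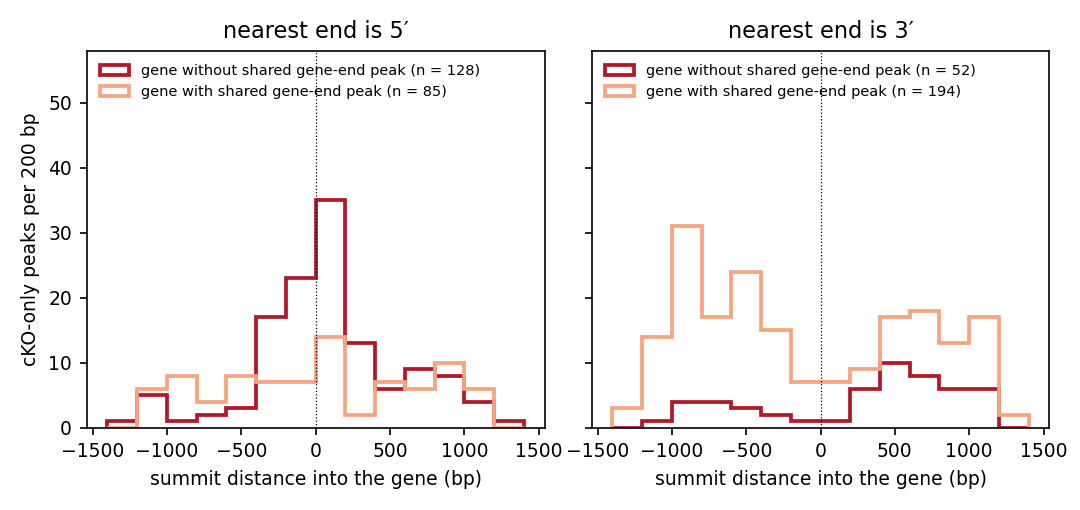
Number of cKO-only peaks per 200 bp (vertical axis) by distance of the summit into the gene from its nearest end (horizontal axis, bp, negative outside the gene), for 5′ ends (left) and 3′ ends (right). Peaks of genes without a shared gene-end peak (dark red) have their summit within 250 bp of the 5′ end in 66 of 128 cases, while 15 of the 194 peaks at 3′ ends of genes with a shared peak (light) cover the last base.

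The strongest peak at a gene without a shared gene-end peak was at Cfd, complement factor D of blood plasma and fat, at chr10:79892708-79893352, with a −log10 q of 14.2, a fold enrichment of 5.25 over local background and 36 fragments; it lay beyond the 3′ end, 267 bp outside. Gstm3, a glutathione S-transferase that detoxifies electrophiles, followed with a peak over its start (chr3:107968753-107969177, −log10 q of 10.7, 23 fragments), and no Gata2WT peak was nearer than 17.0 kb. Its neighbour Gstm6 also had its start in a cKO-only peak, a weaker one with a −log10 q of 2.78. The next were at Tmem156 (10.6), inside the 3′ end of Lmntd1 (10.3) and over 1 end of Gcfc2 (9.65), whose nearest Gata2WT peak was 12.6 kb away. A single peak of 9.56 with 32 fragments lay over the starts of the divergent pair Parp4, a poly(ADP-ribose) polymerase of the vault particle, and Cenpj, a centriole protein, at chr14:56575441-56575833. There the local background was 6.96 fragments, and a Gata2WT peak with a −log10 q of 101 stood 3.33 kb away.

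Further strong peaks lay at genes of epithelia, body patterning, immunity and signalling. Defb1, a defensin of epithelia, had a peak with a −log10 q of 9.40, 82.1 kb from any Gata2WT peak. Sbk2, a kinase gene, had its start inside a peak of 8.50 that also reached the 3′ end of Sbk3. Hoxb4, a homeobox gene of body patterning, had 2 cKO-only peaks at its 5′ end, at chr11:96318646-96318934 (8.44) and chr11:96317701-96318139 (2.85), with the nearest Gata2WT peak 22.7 kb from the second. Lst1, an immune gene, and Adipor2, an adiponectin receptor, had peaks of 8.43 and 8.27. Maml3, a coactivator of Notch signals, had 1 of 8.18 just inside its 5′ end, but a Gata2WT peak with a −log10 q of 69.6 lay 0.996 kb away, on the far side from the gene's start and more than 1 kb from it. Lacking a shared gene-end peak did not always mean lacking a Gata2WT peak nearby. Of the 254 peaks of this class, 22 (8.66%, 5.79 to 12.8) had one within 1 kb. That is near the 8.99% (8.38 to 9.63) of cKO-only peaks away from gene ends.

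Starts covered by a cKO-only peak belonged to 47 genes without a shared gene-end peak and 16 with one. Genes without one included Rusc1 (−log10 q of 7.91), Bpifb5 (7.59), Kcnk18, a potassium leak channel of sensory neurons (6.89), Tubb3, the neuronal beta tubulin (6.27), Tnfaip6, a hyaluronan-binding protein of inflammation and of the ovulating follicle (6.02), and Tnfrsf13c, the BAFF receptor of B cells (5.68). Weaker ones covered the starts of Calcrl (5.18), Aqp1, a water channel (4.81), Hgf, the hepatocyte growth factor (3.61), Rsad2, an antiviral protein (3.61), and Il2rg, the shared chain of several interleukin receptors (2.88). Gene starts of the lens crystallins Cryaa and Cryba1 had peaks of 2.24 and 1.45. Tubb3 also had a cKO-only peak beyond its 3′ end (2.82), and its start peak reached the 3′ side of Mc1r, the melanocortin receptor.

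Promoters whose start lay in a cKO-only peak were poor in CpG. Sequence was not used to choose the peaks. The values cover the whole promoter window, including bases outside the peak. The ratio of observed to expected CpG had a median of 0.380 over the 63 promoters (quartiles 0.217 and 0.606), against 0.788 over 8732 promoters with a peak over the start in both lists and 0.188 over 6288 with a peak in neither. It exceeded 0.6 in 25.4% of the cKO-only set (16.3 to 37.3), in 79.5% of the set with peaks in both lists (78.6 to 80.3) and in 8.84% of the set without (8.17 to 9.57). Over all 15533 promoters the median was 0.593 and the share above 0.6 was 49.5%. The 128 promoters under WT-only peaks had a median of 0.404 and a share of 18.8% (12.9 to 26.4), and their intervals overlap those of the cKO-only set. Thus the cKO-only set lay between the open and the closed promoters, close to its mirror set. Starts that a shared peak covered in Gata2cKO alone were richer in CpG, with a median of 0.704 over 148 promoters. For starts covered by a shared peak in Gata2WT alone it was 0.540 over 174. Peak strength was not matched between any of these sets. In the windows printed above, the ratio was 0.213 for Gstm3, 0.322 for Sbk2, 0.405 for Rbp4, 0.543 for Piwil4, 0.720 for Parp4 and 0.765 for Tubb3.

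**Figure D4:**
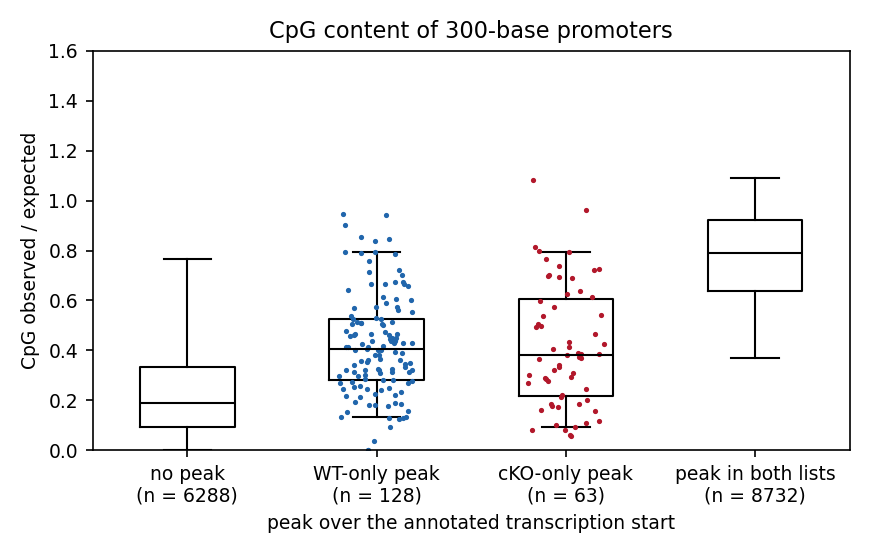
Observed over expected CpG of 300-base promoter windows (vertical axis) by the peak that covers the annotated start (horizontal axis); boxes give quartiles and median, whiskers the 5th and 95th percentiles, and points the single promoters of the WT-only (blue) and cKO-only (red) sets. The cKO-only median of 0.380 lies between 0.188 for promoters with no peak and 0.788 for those with a peak in both lists.

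Short motifs were counted in the same windows on both strands. A promoter is called under a peak where the peak covers its start, so a motif can lie outside the peak. GATAA, the core of the GATA site, occurred in 10 of the 63 promoters under cKO-only peaks (15.9%, 8.86 to 26.8), in 37 of 128 under WT-only peaks (28.9%, 21.8 to 37.3) and in 23.1% of all 15533. The longer form AGATAA, which contains GATAA, was in 2 of 63 (3.17%, 0.875 to 10.9), in 19 of 128 (14.8%, 9.71 to 22.0) and in 9.97% of all. These intervals overlap. TGANTCA, the site of AP-1 factors, was in 11 of 63 (17.5%, 10.0 to 28.6), 11 of 128 (8.59%, 4.87 to 14.7) and 7.06% of all; the share was 3.93% where both lists had a peak and 11.4% where neither had. It was found at Tnfaip6, P2rx7, Rsad2, Tmem54, Fam180a, Creb3l3 and Cryaa, among others. GGGCGG, the GC box, was in 42.9% of the 63 (31.4 to 55.1), in 70.1% of promoters with peaks in both lists and in 47.4% of all. CTTCCG, an ETS core, was in 7.94% (3.44 to 17.3), 33.6% and 22.0%. Both motifs contain CpG. TATAAA was in 11.1% of the 63 (5.49 to 21.2) and 13.8% of all, CCAAT in 31.7% (21.6 to 44.0) and 39.8%, CACGTG in 1.59% (0.281 to 8.46) and 8.11%, and CACCTG in 31.7% (21.6 to 44.0) and 19.4%. A match only says that these letters are there.

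The strongest of all 631 peaks lay at genes that also had a shared gene-end peak. Nr2e1, an orphan nuclear receptor of neural stem cells, had a peak of 19.1 inside its 3′ end (chr10:42562252-42562583, 30 fragments), 20.1 kb from its shared peak. Mbtps2, a protease that cuts membrane-bound transcription factors, had another of 19.1 beyond its 3′ end (chrX:157547142-157547406, 27 fragments). At Spry2, a feedback inhibitor of FGF signals, a peak with a fold enrichment of 4.72 and 42 fragments stood 630 bp before the start; 697 bp further on lay the shared peak, with a −log10 q of 9.67 in Gata2cKO and 5.22 in Gata2WT. R3hdm2 had 1 of 14.2 inside its 5′ end, 398 bp from a shared peak of 39.2 in Gata2cKO and 45.9 in Gata2WT. Ehd2, a protein of caveolae, had 1 of 13.9 over its start, 20.9 kb from its shared peak. The values of the lists were not scaled to each other, so no change is read from a pair.

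Some of these peaks lay close to a shared peak. Over all 436 pairs of peak and gene, the strongest shared peak was within 1 kb in 113 and over 10 kb away in 237. At 5′ ends its median distance was 0.554 kb, with 63 of 91 within 1 kb. At 3′ ends the median was 21.0 kb, with 10 of 228 within 1 kb. Part of this contrast comes from the window rule, since the shared peaks of these genes mostly lay at the 5′ end. The size of that part was not tested. Ube2e2, Dennd1b and Rybp, the last a subunit of a Polycomb complex, had cKO-only peaks of 9.71, 9.65 and 8.76 at 340, 435 and 269 bp from shared peaks of 26.8, 32.4 and 36.7 in Gata2cKO, which had 45.7, 47.7 and 49.6 in Gata2WT. At the 3′ end, Tcp1, a chaperonin subunit, had 2 cKO-only peaks, of 8.11 and 2.76, and Gadd45b, a stress-response gene, had 1 over its last base of 7.60 on a local background of 12.8 fragments. Drd1, a dopamine receptor, had 1 of 7.87 inside its 3′ end, where its shared peak was weak (1.35 in Gata2cKO and 5.56 in Gata2WT).

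Retinoic acid genes carried 4 cKO-only gene-end peaks among 26 genes (15.4%, 6.15 to 33.5), against 3.28% of all protein-coding genes, and each of the 4 also had a shared gene-end peak. Retinoic acid from ovarian or mesonephric cells helps germ cells to enter meiosis. Rbp4, the carrier of retinol, had its start inside a peak of 8.31 (chr19:38124966-38125406, 20 fragments), and the shared peak, of 7.15 in Gata2cKO and 8.96 in Gata2WT, lay 293 bp away inside the gene. Rarg, a retinoic acid receptor, had 1 of 4.96 inside its 3′ end and a WT-only gene-end peak as well. Rxrg, a retinoid X receptor, had 1 of 3.12, 391 bp from its shared peak, and Crabp2, which carries retinoic acid in the cell, had 1 of 3.71, 688 bp from its own. WT-only gene-end peaks were found at 3 of the 26 genes, against 4.95% of all protein-coding genes, so single-list peaks of both kinds occurred at this list.

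WNT genes also gave 4 of 26 (15.4%, 6.15 to 33.5). None of the list had a WT-only gene-end peak, against 4.95% of all protein-coding genes. The BMP list had none among 27 genes either, and a count of 0 among 27 leaves room for up to 12.5% (Wilson). Wnt4, the ligand of ovarian supporting cells, had a peak of 4.08 before its start (chr4:137276607-137277342), 537 bp from a shared peak of 13.5 in Gata2cKO and 13.1 in Gata2WT. Fzd7, a WNT receptor, had 1 of 4.32 beyond its 3′ end, 4.46 kb from a shared peak of 48.1 and 61.7. Lef1, a transcription factor that acts with beta-catenin, had 1 of 2.44 just inside its 5′ end, on a high local background of 12.1 fragments, with a Gata2WT peak of 32.2 at 0.680 kb whose Gata2cKO partner did not reach within 1 kb of the gene's end. Axin1, a scaffold of beta-catenin breakdown, had 1 of 2.49 over an annotated end and no shared one.

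In the lists of germ cell programmes, the intervals of all 4 shares included the 3.28% of all protein-coding genes. Of 50 meiotic genes 1 had one (2.00%, 0.354 to 10.5), Stag3, a meiotic cohesin, whose peak covered its first base with 12 fragments; it also reached Gpc2 and Gal3st4. Of 32 pluripotency genes 2 did (6.25%, 1.73 to 20.1). At Nanog the peak lay before the start with its summit 326 bp outside, 16 fragments on a local background of 6.36, and at Tfap2c, a factor of germ cell specification, there were 2, of 3.27 and 1.04 at chr2:172544230-172544889 and chr2:172557362-172557645, with a WT-only gene-end peak besides. Tfap2c was also the 1 of 29 germ cell identity genes (3.45%, 0.611 to 17.2). Male germ cell fate genes gave 2 of 20 (10.0%, 2.79 to 30.1): Piwil4, of the piRNA pathway, with its summit 6 bp from the start, 10 fragments and a nearest Gata2WT peak at 8.53 kb, and Ctcfl, a CTCF paralogue of the germ line, with 8 fragments. WT-only gene-end peaks were found at 8 of the 32 pluripotency genes, 1 of the 50 meiotic, 3 of the 29 germ cell identity and 3 of the 20 male-fate genes, against 4.95% of all protein-coding genes.

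**Figure D5:**
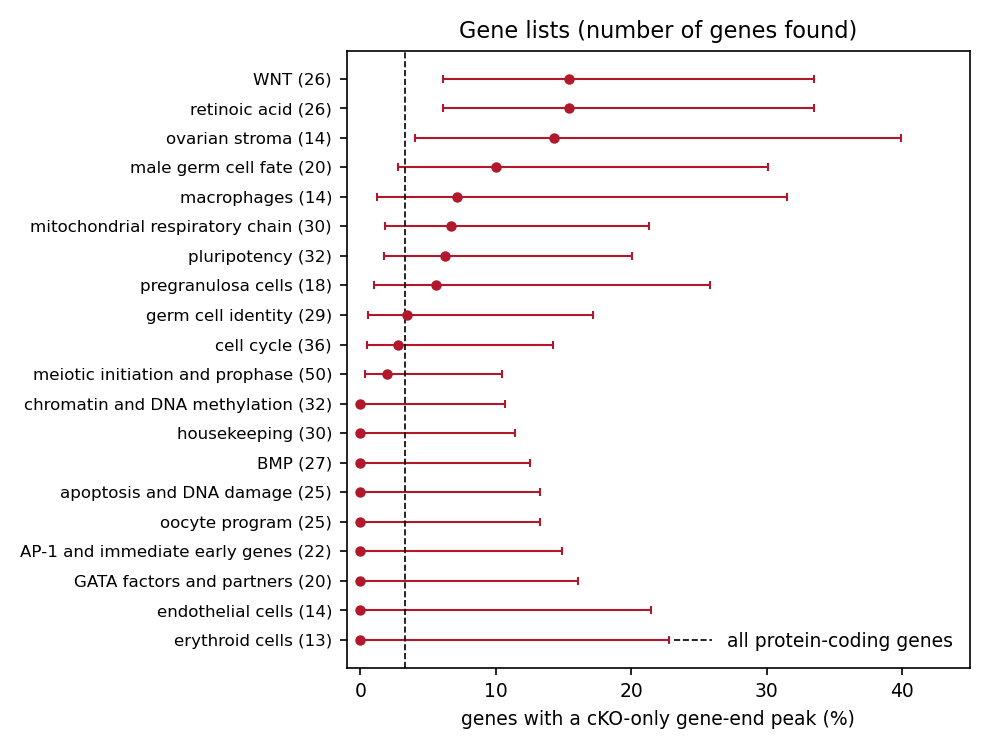
Percent of genes with a cKO-only gene-end peak (horizontal axis) in 20 gene lists (vertical axis, number of genes found in brackets); points are shares, bars 95% Wilson intervals, and the dashed line marks 3.28%, the share over all protein-coding genes. The retinoic acid and WNT lists lie at 15.4% and 9 lists at 0.

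No cKO-only gene-end peak was found at any of the 25 oocyte genes, 27 BMP genes, 20 GATA factors and partners, 32 chromatin genes, 25 apoptosis and damage genes, 30 housekeeping genes, 22 immediate early genes, 14 endothelial or 13 erythroid genes. A count of 0 among 20 genes leaves room for a share of up to 16.1% (Wilson), and among 32 for 10.7%. Elsewhere Ccne2, cyclin E2, was the 1 of 36 cell cycle genes (2.15), Atp5b and Atp5o the 2 of 30 respiratory chain genes (4.21 and 1.06, both beyond the 3′ end), Wnt4 the 1 of 18 pregranulosa genes and Tyrobp the 1 of 14 macrophage genes (5.01). Over all 20 lists, 19 of 484 genes had one (3.93%, 2.53 to 6.05), near the share of all genes. Gata2 itself had 0 gene-end peaks in Gata2cKO and 1 in Gata2WT; since the floxed stretch is not described in the labels, this does not check the deletion.

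Counts over gene families depended on gene ends that several genes share. A single peak at chr18:37840705-37840966 (5.86) reached the common end of 24 gene records of the protocadherin gamma cluster, 21 of them named Pcdhg, and so 22 of 69 protocadherins counted. Likewise 1 peak at chr1:88219435-88219718 (1.95) reached 9 Ugt1a genes. Without the clustered protocadherins, 408 in place of 429 genes had a shared peak beside the cKO-only one. Zfp genes gave 9 of 397 (2.27%), solute carriers 13 of 375 (3.47%, 2.04 to 5.84), Hox genes 3 of 39 (Hoxa4, Hoxb4 and Hoxc10) and olfactory receptors 2 of 1110 (0.180%, 0.0494 to 0.655), against 3.28% of all protein-coding genes. The intervals of the solute carriers and the Hox genes (2.65 to 20.3) include that share. Of the olfactory receptors, 2 had a shared gene-end peak. Genes without a shared peak had a median length of 18.6 kb, those with one 22.5 kb, and all protein-coding genes 17.3 kb.

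At 25 of the 280 genes without a shared gene-end peak, each list had a gene-end peak of its own at a different place. Srd5a2, which makes dihydrotestosterone, had a cKO-only peak of 9.47 at its 5′ end (chr17:74047237-74047842), 383 bp from a Gata2WT peak of 1.37. Tinagl1 had 1 of 7.58, with a Gata2WT peak of 2.12 at 893 bp, and Pdlim4 1 of 5.22, with a Gata2WT peak of 4.83 at 26 bp. Enah, Col8a2 and Myocos had cKO-only peaks of 6.89, 3.41 and 3.61. The other 255 genes divided into 250 with no Gata2WT peak at either end and 5 that a shared peak reached in Gata2WT only. Further, 15 genes had 2 cKO-only gene-end peaks, among them Smim24 (5.25 and 7.08) and Nolc1 (3.48 and 3.41), and none had more.

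By chromosome, cKO-only peaks were from 1.87% of the gene-end peaks on chromosome 13 (10 of 534; 1.02 to 3.41) to 6.07% on chromosome 4 (56 of 922; 4.71 to 7.81) and 19 of 453 on X (4.19%). Among cell type markers, 7 of 8 germ cell genes and 5 of 5 pregranulosa genes had a shared gene-end peak. So did 2 of 4 stroma, 3 of 4 endothelial, 1 of 4 macrophage and 2 of 4 erythroid genes. Of all 21627 protein-coding genes, 13593 had one. With so few markers per cell type, gene-end peaks alone did not single out germ cells. Of all these markers, 1 carried a cKO-only gene-end peak, Wnt4. Gata2WT had the longer list, 49394 peaks, and the higher genome background, 2.19 fragments against 2.01; with both lists brought to equal length, 750 of the Gata2cKO gene-end peaks (5.36%) were cKO-only, while the part of the background was not tested. Where Gata2WT has no peak, the signal missed the threshold of the peak caller, and openness below it cannot be judged from a list.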

How the data were processed

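ATAC-seq of 4 samples was deposited as 1 narrow peak list per genotype, marked as combined in the peak names. Per the submitters' processing notes, the build is GRCm38 (mm10) and the peak caller named is MACS2 2.2.6, with Bowtie2 2.3.5.1, Trimmomatic 0.39, Picard 2.23.0, bedtools 2.29.2 and SAMtools also named. The sources used here do not give how samples were combined, reads shifted or duplicates removed. The deposited fold enrichment is the ratio of summit pileup to local background, the deposited −log10 p and −log10 q rate it, and the deposited score restates the −log10 p multiplied by 10. No peak had a −log10 p under 3.00. None was scaled between lists.

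Rows with 1 interval were merged (52241 to 44139 peaks in Gata2cKO, 58367 to 49394 in Gata2WT, on the 19 autosomes and X; chromosome Y was left out), keeping the highest summit. The whole fragment number at each summit was solved from fold and −log10 p, within 0.001, for 100.0% of peaks in both lists. Reads per sample were not analysed here. Genes and promoters came from RefSeq tables of GRCm38.p6; 17273 of 21627 coding genes had a strand there, and 515 of the 709 genes reached. For each promoter window, the start nearest the annotated gene end was taken if within 1 kb. Wilson intervals and shares were computed in Python 3.11.15 with pandas 2.3.3, NumPy 2.4.6 and SciPy 1.17.1, after the steps had been tested on simulated data. Of 506 list entries, 3 were found by an older symbol and 3 not at all.

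The peaks, gene lists and named genes were chosen with earlier results of these data known. Named genes are part of those taken by a rule: the 12 strongest peaks per gene class, members of the 20 lists, the 10 strongest over a start, and the 10 strongest genes with 2 peaks or with a peak of each list. Families, the weaker promoters and other names were taken after their values were seen. Some genes are not reported here. Alternatives covered overlap, threshold, list length, window, sequences and genes.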

Additional observations from a re-analysis of the deposited data

Results flagged for a closer look

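Peaks on chromosome Y lie outside the chromosomes described above. The Gata2cKO list held 4 and the Gata2WT list 6, although the samples are labelled female. Of the 4, 3 overlapped a Gata2WT peak and 0 lay at a coding gene end.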

How the results depend on the processing

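Of 54 values recomputed (6 results under 9 settings), 31 stayed within 1.5 times for counts, the 95% Wilson interval for shares or the quartiles for the median. Counting as shared only summits within 250 bp gave 1726 peaks, 12.3% of gene-end peaks, 739 genes with and 1132 without a shared peak, 72.7% at a 5′ end and a median −log10 q of 5.76; the peaks that this adds overlap a Gata2WT peak whose summit lies further off. With genes of every type there were 1186 peaks (6.94%), 796 genes without a shared peak and 52.7% at a 5′ end. A 0.5 kb window gave 396 peaks (3.16%), 186 genes with a shared peak and 53.9%; a 2 kb window gave 1054 (6.59%), 835 and 40.9%. Intervals up to 500 bp apart counted as shared gave 3.84% and 41.4%, a −log10 q of at least 2 gave 4.03% and 51.0%, and equal list lengths gave 5.36%, which adds peaks by construction since only the Gata2WT list is shortened. All sequences in the files changed none of the 6 results, nor did leaving out the clustered protocadherin genes, an alternative chosen after seeing the data, move any beyond its limit. No paired analysis was possible because each genotype had 1 combined list; for the same reason no replicate could be left out. With a smallest summit of 8 fragments, presence in 1 list of the weaker peaks rests on few fragments.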
